A study of Homo sapiens with 28 samples.

Results

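The enzymes that write cytosine methylation and the proteins that read or remove it were followed as 9 genes: DNMT1, DNMT3A, DNMT3B, TRDMT1, HELLS, MBD1, MBD2, MBD4 and TDG. Members were taken by gene symbol, as every probe set annotated to 1 of these symbols and to no other gene. This gave 17 of the 22277 probe sets on the array, for 9 of the 11963 genes that have a probe set of their own. A filter on dim probe sets (signal above the array median on at least 2 arrays) kept 14 of the 17, with at least 1 for every member. The 3 that were left out all belong to MBD2, and their signal stayed at or below 74.3 on every array.

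A549 and H1299, lines from human non-small cell lung cancers, were given azacitidine or decitabine for 48 h at 0.3, 1 or 3 µM, or the vehicle DMSO, with drug renewed every 24 h. Azacitidine is a ribonucleoside, and decitabine carries the same base on a deoxyribose. Each of the 14 groups (vehicle and 6 drug doses in each line) had 2 arrays, 28 in all, made from total RNA of whole wells of cells. Nothing in the labels says that the arrays of a group came from separate cultures, so p-values measure the spread between these samples, which may be technical. In bulk RNA, fewer cells that use a gene and less of its RNA per cell cannot be told apart. All 6 doses in a line share that line's vehicle arrays, so their results are not independent of each other. The design asks how the pair of drugs acts over a range of doses, and here that is read on the drugs' own protein targets and their partners.

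DNMT1 copies methylation onto the new DNA strand behind the replication fork, while DNMT3A and DNMT3B add it to sites that carried none. Azacitidine and decitabine, once built into DNA, hold these enzymes in a covalent bond, and the trapped DNMT1 protein is then broken down, so the protein can be lost without a change in its mRNA. TRDMT1 (once called DNMT2) has the fold of a DNA methyltransferase but methylates transfer RNA, and azacitidine, unlike decitabine, also enters RNA. HELLS is a helicase-like chromatin remodeller needed for methylation of repeats. MBD1 and MBD2 bind methylated CpG and recruit repressors, and MBD4 and TDG are glycosylases that cut out the thymine left when a methylated cytosine is deaminated. TDG also removes the oxidised forms of methylcytosine.

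The deposited values are MAS5 signals, a brightness per probe set on a linear scale. Levels are given below as signal, and differences as log2 of signal plus 32, so differences of dim probe sets are drawn toward 0. The arrays share 1 scale (a trimmed mean of 500.125 to 500.159), with a median signal of 92.7 to 123, and with 2 arrays per group their number limits how precise a difference can be. KRT8 and KRT18, keratins of epithelial cells, lay above the array median on all 14 arrays of each line, and PTPRC, CD3D, LYZ and CD14 of leukocytes on 0 of 14 in each line. CDKN2A, which is deleted in A549, lay above the median on 0 of 14 A549 arrays and 14 of 14 H1299 arrays. The other 4 epithelial markers passed it more often in A549: KRT7 lay above the median on 14 A549 and 0 H1299 arrays, CDH1 on 11 and 0, EPCAM on 14 and 6 and KRT19 on 11 and 6. Of 4 fibroblast markers, COL1A1 lay above it on all 14 arrays of each line, COL1A2 on 0 A549 and 4 H1299 arrays, DCN on 3 and 1 and LUM on 0. A549 vehicle replicate 1 and A549 azacitidine 3 µM replicate 1 had the highest lower quartiles of signal (28.3 and 25.7, against 18.0 to 24.3 elsewhere). A549 decitabine 3 µM replicate 1 is labelled a repeat, and its lower quartile (21.9) was within the range of the others. The first pair stands apart by signal and the last by its label alone, and below all 3 are called arrays that stand apart. A549 results against vehicle that lost their call without these 3 arrays are given without them as well, a fit in which 3 groups keep 1 array that is assumed to vary like the rest.

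**Figure D1:**
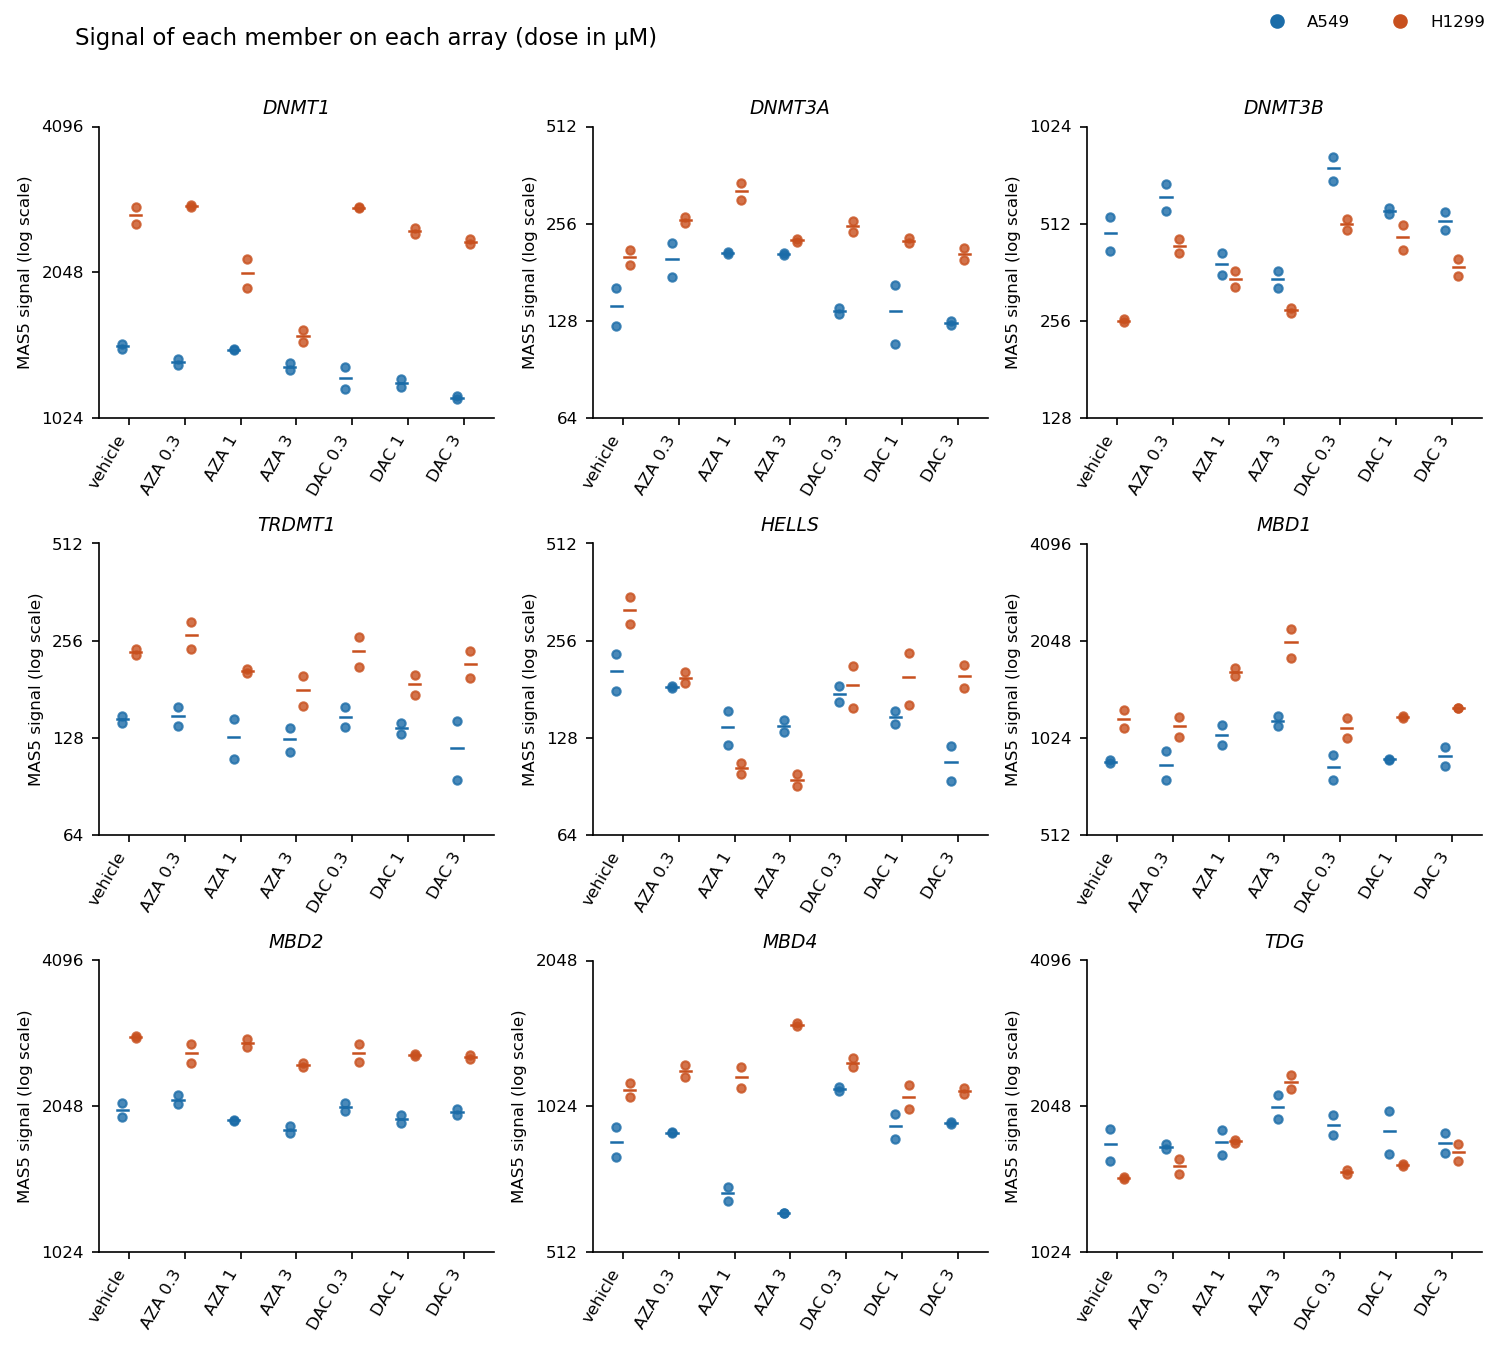
Signal of the 9 members on each of the 28 arrays, 1 panel per gene, with the group on the horizontal axis (AZA, azacitidine; DAC, decitabine; doses in µM) and MAS5 signal on a log2 vertical axis; points are arrays and bars the mean of 2 arrays. DNMT1 in H1299 drops from 2577 and 2792 in vehicle to 1554 and 1468 at 3 µM azacitidine, and MBD4 moves apart in the lines at that dose.

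In vehicle, all 9 members differed between the lines (65.3% of all 8024 genes tested did), 7 of them higher in H1299 (32.9% of all genes were higher) and 2 lower (32.4%). DNMT1 had the largest difference of the 9, with signals of 1458 and 1420.0 in A549 against 2577 and 2792 in H1299 (log2 0.88, SE 0.0692, adjusted p = 2.82e-10). DNMT3B went the other way, with 538 and 420.3 in A549 against 259 and 253 in H1299 (log2 -0.82, SE 0.129, adjusted p = 9.89e-06). The A549 and H1299 arrays did not overlap for either gene. The reader MBD2 (0.49), the remodeller HELLS (0.56), TRDMT1 (0.59), MBD1 (0.42), DNMT3A (0.43) and MBD4 (0.34) were also higher in H1299, and TDG was lower (-0.22). For MBD4, 1 of 4 probe sets was called, and the other 3 gave 0.03 to 0.21. The TDG difference was -0.11 (adjusted p = 0.385) without A549 vehicle replicate 1, and it also missed the threshold without either H1299 vehicle array (adjusted p = 0.117 and 0.107). DNMT3A gave 0.27 (adjusted p = 0.188) without A549 vehicle replicate 1 and 0.36 (0.0979) without H1299 vehicle replicate 2. HELLS gave 0.40 (0.0987) without A549 vehicle replicate 2 and 0.43 (0.0818) without H1299 vehicle replicate 2, and MBD1 gave 0.33 (0.0523) without H1299 vehicle replicate 1.

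Against vehicle, more members passed the test (adjusted p under 0.05 over all genes) at 1 and 3 µM azacitidine than at any decitabine dose, in H1299 and, with all arrays, in A549. In A549, 0 of 9 members passed at 0.3 µM azacitidine with limma, where 2 had an unadjusted p under 0.05 and 2.44% of all genes passed. At 1 µM azacitidine 3 members passed (25.2% of all genes) and at 3 µM 6 did (38.3%). Decitabine in A549 gave 2 members at 0.3 µM (7.69%), 1 at 1 µM (16.6%) and 2 at 3 µM (25.8%). In H1299, azacitidine gave 2 members at 0.3 µM (5.67%), 6 at 1 µM (35.3%) and 6 at 3 µM (53.9%), and decitabine gave 2 at 0.3 µM (17.8%), 2 at 1 µM (23.4%) and 2 at 3 µM (30.9%). The members' shares thus stand on a background in which large parts of the transcriptome passed as well. At 3 µM azacitidine, 3 members rose and 3 fell in each line, where 22.1% of all genes rose and 16.2% fell in A549 and 32.3% rose and 21.6% fell in H1299. The 14 calls made in A549 over the 6 doses were 7 without A549 vehicle replicate 1 and 3 without all 3 of the arrays named above, a setting in which the lead of azacitidine over decitabine in A549 ended. Those 3 were MBD4 at 1 and 3 µM azacitidine (-0.44 and -0.57) and DNMT3B at 0.3 µM decitabine (0.80), 1 call at each of these drug doses. The 20 calls in H1299 were 13 without H1299 vehicle replicate 2.

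DNMT1, the maintenance methyltransferase and main target of the drugs, fell in 4 of the 12 comparisons with vehicle and rose in none. In H1299 the vehicle arrays read 2577 and 2792, and azacitidine gave 2813 and 2799 at 0.3 µM, 1904 and 2184 at 1 µM and 1554 and 1468 at 3 µM. Decitabine in H1299 gave 2775 and 2789, 2529 and 2452, and 2339.9 and 2398 at the same doses. The azacitidine arrays at 1 and 3 µM lay below both vehicle arrays, and those at 3 µM below every other H1299 array. The difference was -0.39 at 1 µM (SE 0.0692, adjusted p = 1.57e-04) and -0.82 at 3 µM (SE 0.0692, adjusted p = 3.03e-09), where the mean level was 0.568 times that of vehicle on this scale. Decitabine at 3 µM in H1299 gave -0.18 with an adjusted p of 0.0573, which missed the threshold.

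In A549 the order of the drugs was the opposite. Vehicle read 1458 and 1420.0, azacitidine 1357 and 1318, 1425 and 1411, and 1328 and 1284, and decitabine 1173 and 1306, 1232 and 1184, and 1119 and 1135, from 0.3 to 3 µM. Every decitabine array lay below both vehicle arrays. DNMT1 fell by 0.34 at 3 µM decitabine (SE 0.0692, adjusted p = 8.87e-04) and by 0.25 at 1 µM (adjusted p = 0.0175), and no azacitidine dose passed (-0.02 to -0.14). The call at 1 µM decitabine was lost without A549 vehicle replicate 1 (-0.23, adjusted p = 0.102) and without A549 decitabine 1 µM replicate 2 (-0.22, 0.131). Without the 3 arrays named above, the differences at 1 and 3 µM were -0.23 (adjusted p = 0.116) and -0.32 (0.0521).

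HELLS, which many repeats need for their methylation, fell in 9 of 12 comparisons and was the member with the largest change. H1299 vehicle read 288 and 349.5, and azacitidine gave 189 and 205, 107 and 99.2, and 99.2 and 90.9 at the rising doses. Decitabine in H1299 gave 158 and 214, 234 and 161, and 214 and 182. All 12 treated H1299 arrays lay below both vehicle arrays, and the 4 arrays at 1 and 3 µM azacitidine lay lowest. HELLS fell by 1.37 at 1 µM azacitidine (SE 0.170, adjusted p = 2.42e-06) and by 1.46 at 3 µM (SE 0.170, adjusted p = 3.10e-07), the latter to 0.363 times the vehicle level. The falls with decitabine were 0.69, 0.62 and 0.60 in size, with no call for 3 against 0.3 µM (a rise of 0.09, interval -0.27 to 0.44). Each decitabine call rested on single arrays: it was lost without H1299 vehicle replicate 2 (adjusted p = 0.0861, 0.113 and 0.108) and without 1 of the treated arrays at each dose, namely 0.3 µM replicate 1 (0.122), 1 µM replicate 2 (0.192) and 3 µM replicate 2 (0.0946). The call at 0.3 µM azacitidine (-0.61, adjusted p = 0.0386) was lost without any of its 4 arrays (adjusted p = 0.0782 to 0.228).

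In A549, HELLS read 233 and 179 in vehicle, and 185 and 182, 122 and 154, and 133 and 145 with azacitidine. Decitabine gave 186 and 165, 155 and 141, and 94.1 and 121. The arrays at 1 and 3 µM of either drug lay below both vehicle arrays. The fall at 3 µM decitabine was 0.77 in size (SE 0.170, adjusted p = 0.00202), and those at 1 and 3 µM azacitidine were 0.48 (adjusted p = 0.0419) and 0.47 (adjusted p = 0.0339). Without A549 vehicle replicate 1, the azacitidine values were -0.32 (adjusted p = 0.322) and -0.30 (0.274). They also missed the threshold without azacitidine 1 µM replicate 1 (-0.34, 0.253), and without azacitidine 3 µM replicate 1 (-0.42, 0.147) or replicate 2 (-0.52, 0.0716). Without the 3 A549 arrays named above, the values at 1 and 3 µM azacitidine were -0.32 (adjusted p = 0.321) and -0.25 (0.474), and that at 3 µM decitabine was -0.46 (0.228).

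DNMT1 and HELLS were the members whose promoters hold a word of the type bound by E2F factors, which drive genes of DNA replication, and the stretches around their start sites are shown for that reason. Promoters of 300 bases (250 before to 50 after each start) came from RefSeq, build GRCh38.p14, and all 9 members matched, with 14 promoters. The words searched on both strands were TTTCCCGC, TTTCGCGC, TTTGCCGC and TTTGGCGC. No other motif was searched, and a promoter can hold more than 1 word. The words were found in 3.31% of all 35116 promoters and in 2 of the members' 14. Each word holds a CpG, and the members' promoters, except that of DNMT3B, hold more CpG than the median promoter. These shares are therefore not from like promoters, and no excess is read from them. Each stretch below runs 5′ to 3′ in the direction of the gene, 110 bases long up to 10 bases past the start, with the words in capitals. DNMT1 lies on the minus strand at chr19:10194944-10195053 and holds 1 word, and HELLS on the plus strand at chr10:94545688-94545797 and holds 2.
DNMT1: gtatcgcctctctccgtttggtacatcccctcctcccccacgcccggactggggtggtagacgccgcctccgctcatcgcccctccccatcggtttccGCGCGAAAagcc
HELLS: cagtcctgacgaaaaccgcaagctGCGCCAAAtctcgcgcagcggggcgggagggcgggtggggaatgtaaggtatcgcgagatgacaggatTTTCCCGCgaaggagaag
A match is a description of letters and not evidence of binding. The same promoters held 18 to 46 CpG for every member but DNMT3B, whose 1 promoter in the table held 3, against a median of 14 over all promoters (quartiles 4 and 28).

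Changes of genes of DNA replication are given beside those of DNMT1 and HELLS. Of 22 such genes (the MCM helicase, GINS, clamp loader, primase, nucleotide reductase and E2F genes), 18 fell and 0 rose at 3 µM azacitidine in H1299, where 21.6% of all genes fell, with a median difference of -0.61 against 0.08 over all genes. At 3 µM decitabine in H1299, 13 fell (median -0.32, 14.6% of all genes fell). In A549 the order again turned: 8 fell and 1 rose at 3 µM azacitidine (median -0.21, 16.2% of all genes fell), and 16 fell and 0 rose at 3 µM decitabine (median -0.54, 10.8%). Without the 3 A549 arrays named above, 6 fell with azacitidine (median -0.16, 10.5% of all genes fell) and 12 with decitabine (median -0.46, 4.14%). E2F8, an E2F family member itself regulated in the cycle, fell by 1.81 in H1299 and 1.09 in A549 with azacitidine, and by 0.50 and 1.25 with decitabine. At 0.3 µM azacitidine in H1299, where HELLS gave -0.61, the replication median was 0.01 and 1 of 22 genes fell. The part of replication genes in the results for DNMT1 and HELLS was not tested.

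**Figure D2:**
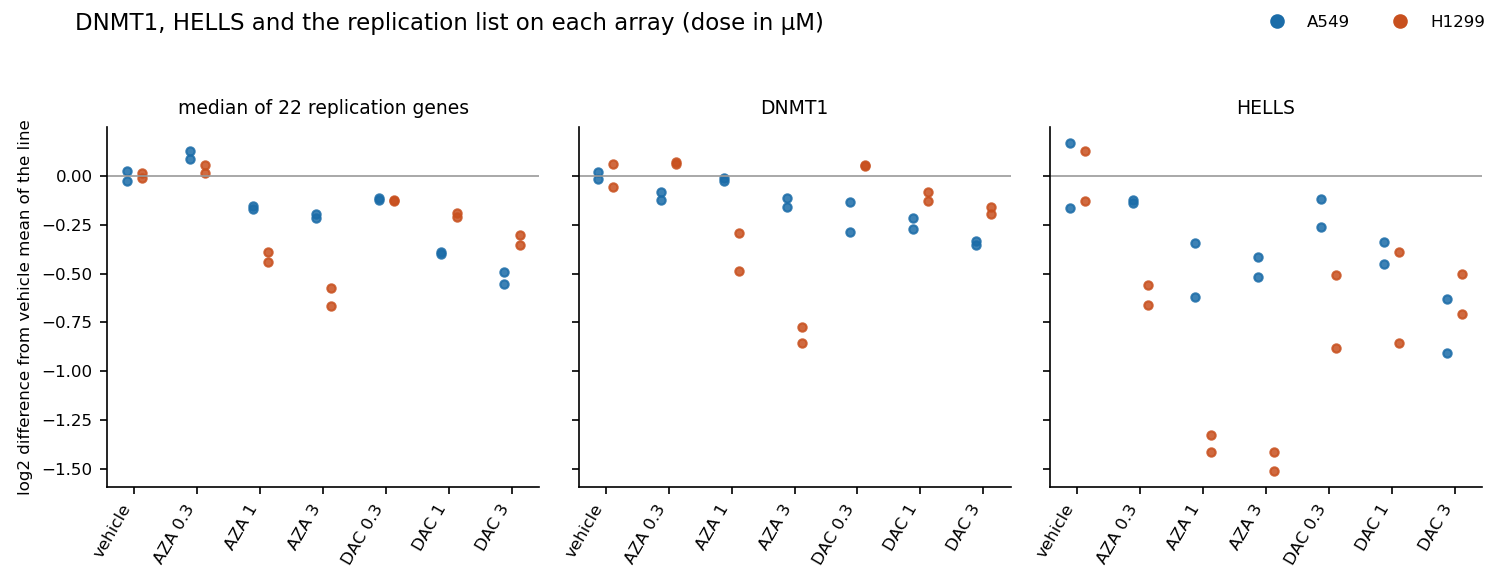
Log2 difference of each array from the vehicle mean of its line, by group (AZA, azacitidine; DAC, decitabine; doses in µM), for the median of 22 replication genes (left), DNMT1 (middle) and HELLS (right); points are single arrays. The replication median lies at -0.57 and -0.67 on the H1299 arrays at 3 µM azacitidine and at -0.22 and -0.20 on those of A549.

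DNMT3A, a methyltransferase for unmethylated sites, rose in 3 of 12 comparisons, all with azacitidine. A549 vehicle read 123 and 162, azacitidine 223 and 175, 209 and 205, and 204 and 207, and decitabine 141 and 135, 109 and 166, and 128.1 and 125. The azacitidine arrays lay above both vehicle arrays at every dose, and the decitabine arrays overlapped them. DNMT3A rose by 0.46 at 1 µM (SE 0.145, adjusted p = 0.0232) and by 0.45 at 3 µM (adjusted p = 0.0174). Both calls were lost without A549 vehicle replicate 1 (0.30, adjusted p = 0.251, and 0.29, 0.203) and without either treated array of the dose (adjusted p = 0.0841 and 0.0828, and 0.0620 and 0.0722). Without the 3 arrays that stand apart both values were 0.30 (adjusted p = 0.271 and 0.309). In H1299, vehicle read 190.3 and 213, azacitidine 258 and 269, 341 and 304, and 224 and 230.1, and decitabine 241 and 261, 223 and 230.4, and 216 and 197. The arrays at 1 µM azacitidine lay above every other H1299 array. The rise there was 0.60 (SE 0.145, adjusted p = 0.00266), and at 3 µM the value was 0.15 (adjusted p = 0.403).

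DNMT3B, its relative, was highest at the lowest dose of either drug. In H1299 the vehicle read 259 and 253, and all 12 treated arrays lay above it. Decitabine gave 491 and 529, 424 and 507, and 399 and 353 from 0.3 to 3 µM, and azacitidine 415 and 459, 366 and 325, and 271 and 281. DNMT3B rose with decitabine by 0.91 (SE 0.129, adjusted p = 3.54e-05), 0.78 and 0.50, and with azacitidine by 0.70 (adjusted p = 0.00272) at 0.3 µM and 0.39 at 1 µM. At 3 µM azacitidine the value was 0.10 (adjusted p = 0.562). The call at 1 µM azacitidine was lost without either vehicle array (adjusted p = 0.0729 and 0.0947) or treated replicate 1 (0.31, 0.158), and that at 3 µM decitabine without treated replicate 1 (0.42, 0.0674).

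In A549, DNMT3B read 538 and 420.3 in vehicle, 680.1 and 562, 356 and 414, and 366 and 324 with azacitidine, and 822 and 696, 547 and 572, and 488 and 557 with decitabine. It rose by 0.63 at 0.3 µM decitabine (SE 0.129, adjusted p = 0.00335) and fell by 0.43 at 3 µM azacitidine (adjusted p = 0.0109), the only fall of DNMT3B among the 12 comparisons. The fall was lost without A549 vehicle replicate 1 (-0.27, adjusted p = 0.180), which was the higher of the vehicle arrays, without azacitidine 3 µM replicate 2 (-0.35, 0.101) and without the 3 arrays that stand apart (-0.35, 0.145). The rise was lost without A549 vehicle replicate 2 (0.47, 0.0574) and without decitabine 0.3 µM replicate 1 (0.52, 0.0724).

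The change of DNMT3B with dose was tested as 3 against 0.3 µM, and it fell in every drug and line. In A549 the difference was -0.79 with azacitidine (adjusted p = 8.02e-05) and -0.51 with decitabine (0.0147), and in H1299 -0.61 (4.30e-04) and -0.41 (0.0464). Both azacitidine calls held without each array in turn. The H1299 decitabine call was lost in 15 of 39 other settings, among them each of its 4 arrays left out (-0.33 to -0.49, adjusted p = 0.0884 to 0.265). The A549 decitabine call was lost without 0.3 µM replicate 1 (-0.40, 0.174) or 3 µM replicate 1 (-0.42, 0.155), and without the 3 arrays that stand apart (-0.42, 0.124). Over all members, 5 of 9 passed this test for azacitidine in A549 (34.4% of all genes), 2 for decitabine in A549 (8.87%), 7 for azacitidine in H1299 (55.5%) and 2 for decitabine in H1299 (9.93%).

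TRDMT1, the transfer RNA methyltransferase, passed the test against vehicle at no dose, with differences from -0.35 to 0.15. Its signals ran from 94.5 to 159.5 on the A549 arrays and from 160.5 to 293 on those of H1299, so the lines did not overlap. In H1299 it read 199 and 160.5 at 3 µM azacitidine, the group with the lowest mean of that line, against 242 and 230.4 in vehicle, and single decitabine arrays read 174 and 196 (the azacitidine difference was -0.35, interval -0.69 to 0.00, adjusted p = 0.0864). From 0.3 to 3 µM azacitidine in H1299 it fell by 0.50 (adjusted p = 0.0149), a call that was lost without 0.3 µM replicate 2 or 3 µM replicate 2 (-0.37 each, adjusted p = 0.142 and 0.146). Other methyltransferases for RNA cytosine did pass: NOP2, which acts on ribosomal RNA, rose at 3 µM azacitidine by 0.90 in A549 and 0.73 in H1299, and NSUN5 by 0.72 and 0.39. Of the 3 measured genes of that list, 2 rose in A549 and 3 in H1299 at 3 µM azacitidine, with 0 falls (22.1% and 32.3% of all genes rose). At 3 µM decitabine 0 of 3 rose in either line (15% and 16.3% of all genes did), and NSUN3 fell in H1299 by 0.43 (14.6% of all genes fell). At 0.3 and at 1 µM decitabine in H1299, 1 of 3 rose (8.9% and 11.8% of all genes did).

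MBD1, which binds methylated CpG and partners with histone methyltransferases, rose in 3 of 12 comparisons, all with azacitidine. Its brighter probe set read 1251 and 1095 in H1299 vehicle, 1593 and 1681 at 1 µM azacitidine and 2233 and 1814 at 3 µM. On the decitabine arrays of H1299 it stayed between 1020.0 and 1266. The azacitidine arrays at both doses lay above all of these. MBD1 rose by 0.47 at 1 µM (SE 0.117, adjusted p = 0.00322) and by 0.77 at 3 µM (SE 0.117, adjusted p = 1.06e-05). In A549 it read 855 and 873 in vehicle and 1118 and 1197 at 3 µM azacitidine, a rise of 0.41 (adjusted p = 0.00867) that was lost without A549 azacitidine 3 µM replicate 2 (0.36, 0.0691), and without the 3 arrays that stand apart (0.44, 0.0650). The rise at 1 µM in H1299 was lost without H1299 vehicle replicate 2 (0.38, 0.0547).

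The dimmer MBD1 probe set, 208595_s_at, also rose with azacitidine, and by more. It read 28.2 and 19.2 in A549 vehicle and 159 and 176 at 3 µM azacitidine, and 35.9 and 38.4 in H1299 vehicle against 182 and 214. The rises were 1.84 and 1.73. Unlike the brighter probe set it was also called with decitabine in H1299, at 1 µM (1.25) and 3 µM (1.27, with signals of 144 and 126), where the brighter set gave 0.03 and 0.11. Its vehicle arrays lie below the median of their arrays. It lay above the median on 10 arrays, all from treated groups where it was high, and passed the filter only through them. Its rise is therefore not separate support for that of the brighter set. MBD1 is thus reported as higher with azacitidine by the brighter probe set and as unsettled for decitabine in H1299.

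MBD2, the reader of the NuRD repressor complex, moved least of the members. Its signals were 1801 to 2157 in A549 and 2473 to 2862 in H1299, and the lines did not overlap. Among the 12 comparisons with vehicle, the only call was at 3 µM azacitidine in H1299, where 2473 and 2515 stood against 2862 and 2829 in vehicle (-0.19, SE 0.0616, adjusted p = 0.0136). It was lost without H1299 vehicle replicate 1 (-0.18, 0.0627) or azacitidine 3 µM replicate 1 (-0.18, 0.0722). From 0.3 to 3 µM azacitidine in A549 MBD2 fell by 0.20 (adjusted p = 0.0143), a call lost without azacitidine 0.3 µM replicate 1 (-0.17, 0.111), azacitidine 3 µM replicate 1 (-0.18, 0.0976) or the 3 arrays that stand apart (-0.18, 0.0928). The NuRD and SIN3 genes that MBD2 works with were mixed at that dose in H1299, with 1 of 10 higher and 4 lower, where 32.3% of all genes were higher and 21.6% lower. SAP30 fell by 0.88, RBBP7 by 0.72 and HDAC1 by 0.56, while SAP18 rose by 0.23.

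MBD4, the glycosylase with a methyl-binding domain, moved in opposite directions in the lines at 3 µM azacitidine. In A549 it read 804 and 927 in vehicle, then 904 and 901, 654 and 699, and 616 and 615 with azacitidine, and 1124 and 1098, 876 and 989, and 943 and 951 with decitabine. In H1299 vehicle read 1143 and 1069, azacitidine 1179 and 1244, 1118 and 1234, and 1519.7 and 1497, and decitabine 1288 and 1232, 1132 and 1010.0, and 1084 and 1117. The A549 arrays at 3 µM azacitidine were the lowest of that line and the H1299 arrays the highest of theirs. MBD4 fell in A549 by 0.47 (SE 0.0807, adjusted p = 9.83e-05) and rose in H1299 by 0.44 (SE 0.0807, adjusted p = 9.61e-05), and both calls held without each array in turn. In A549 it also fell at 1 µM azacitidine (-0.34, adjusted p = 0.00377) and rose at 0.3 µM decitabine (0.35, 0.00864). The first of these was lost without A549 vehicle replicate 2 (-0.24, 0.0701), and the second without vehicle replicate 1 (0.25, 0.162) or decitabine 0.3 µM replicate 1 (0.34, 0.0732), and without the 3 arrays that stand apart (0.25, 0.184).

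The other probe sets of MBD4 were read as a check. At 3 µM azacitidine all 4 were lower in A549 (-0.33 to -0.47), and in H1299 3 of 4 were higher (0.44, 0.54 and 0.78). The dim set 214048_at gave 0.06 in H1299 (adjusted p = 0.789). The brightest 3 sets also put the line difference past the threshold at 0.91 to 1.11. With decitabine the sets differed: 209580_s_at rose in A549 at all 3 doses (0.40, 0.29 and 0.38), and at 3 µM the other 3 gave -0.03 to 0.13 with no call.

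**Figure D3:**
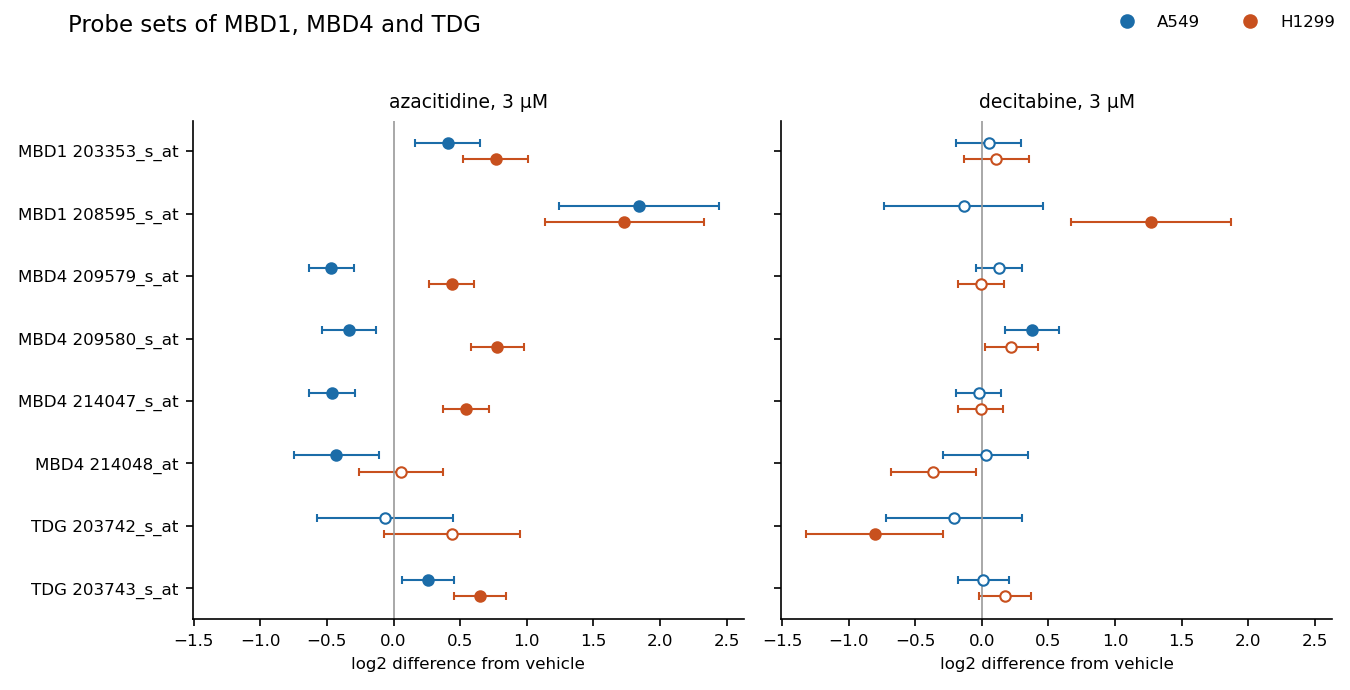
Log2 difference from vehicle at 3 µM azacitidine (left) and 3 µM decitabine (right) for each kept probe set of MBD1, MBD4 and TDG; points are estimates from 2 against 2 arrays, bars are 95% intervals, and filled points passed the test over 11806 probe sets. All 4 MBD4 sets lie below 0 in A549 with azacitidine, and 3 of 4 above 0 in H1299.

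TDG, the thymine DNA glycosylase, rose with azacitidine. H1299 vehicle read 1452 and 1461, azacitidine 1480.3 and 1596, 1747 and 1722, and 2371 and 2227, and decitabine 1480.2 to 1709. All 6 azacitidine arrays lay above both vehicle arrays, as did every decitabine array, and the 3 µM azacitidine arrays lay above all others of the line. The rise was 0.65 at 3 µM (SE 0.0932, adjusted p = 5.19e-06). At 1 µM it was 0.25 (adjusted p = 0.0442), a call lost in 10 of 39 other settings: without any of its 4 arrays (adjusted p = 0.117 to 0.141), and in 6 settings that leave its value at 0.25 (adjusted p = 0.0506 to 0.0663). In A549 vehicle read 1838 and 1579 and 3 µM azacitidine 2163 and 1924, a rise of 0.26 (adjusted p = 0.0346). It was lost without A549 vehicle replicate 2 (0.15, 0.330) or azacitidine 3 µM replicate 1 (0.17, 0.267), without the 3 arrays that stand apart (0.28, 0.0989) and after median centring of the arrays (0.19, 0.0931).

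The dimmer TDG probe set, 203742_s_at, gave 0.44 in H1299 (adjusted p = 0.145) and -0.06 in A549 (0.870) at 3 µM azacitidine. At 3 µM decitabine in H1299 it was called lower (-0.80, adjusted p = 0.0180), where the brighter set gave 0.17. The arrays behind that call read 74.4 and 217 against 259 and 246 in vehicle, so replicate 1 lies far below replicate 2.

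The drugs, which differ in the sugar of the nucleoside, were compared at matched doses, in 6 comparisons, as azacitidine minus decitabine. In A549, 1 of 9 members differed at 0.3 µM (5.7% of all genes), 4 at 1 µM (34.3%) and 6 at 3 µM (50.4%). In H1299, 0 differed at 0.3 µM with limma (0 had an unadjusted p under 0.05, and 6.38% of all genes passed), 5 at 1 µM (34% of all genes) and 6 at 3 µM (56.3%). When the 6 comparisons were adjusted together over 48144 tests, 21 of these 22 calls were kept. TDG at 3 µM in A549 was lost (adjusted p = 0.0515), and DNMT3A at 0.3 µM in A549 was gained (0.0241). Over the 3 doses, 5 members differed in A549 (54.4% of all genes) and 7 in H1299 (54%).

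DNMT3B was lower with azacitidine than with decitabine in both lines, by -0.28, -0.51 and -0.56 in A549 and -0.21, -0.40 and -0.40 in H1299 from 0.3 to 3 µM. The values at 0.3 µM missed the threshold, while the difference over doses was -0.45 in A549 (SE 0.0743, adjusted p = 3.22e-05) and -0.34 in H1299 (SE 0.0743, 6.32e-04). DNMT3A was higher with azacitidine, by 0.52 over doses in A549 (SE 0.0837, adjusted p = 2.50e-05). In H1299 the difference of DNMT3A was 0.21 (adjusted p = 0.0380), a call lost without 9 of the 12 treated arrays of the line (0.19 to 0.22, adjusted p = 0.0533 to 0.0985), that is, without any of them but azacitidine 1 µM replicate 2, decitabine 0.3 µM replicate 2 and decitabine 3 µM replicate 1. The brighter MBD1 probe set was called higher with azacitidine over doses in both lines. The dimmer set was called in A549 only. It passed the filter only through treated groups where it was high, so its call is not separate support. The brighter set gave 0.20 in A549 (adjusted p = 0.0143) and 0.37 in H1299 (8.24e-05). The A549 value lost its call without azacitidine 0.3 µM replicate 1 (0.16, 0.0669), azacitidine 1 µM replicate 2 (0.17, 0.0527) or decitabine 0.3 µM replicate 1 (0.16, 0.0595).

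DNMT1 and MBD4 differed between the drugs in opposite directions in the lines. DNMT1 was higher with azacitidine in A549 (0.18 over doses, SE 0.0399, adjusted p = 6.75e-04) and lower in H1299 (-0.30, SE 0.0399, 1.62e-06), where 3 µM gave -0.64. MBD4 was lower with azacitidine in A549 (-0.44, SE 0.0466, adjusted p = 7.90e-08) and higher in H1299 (0.17, SE 0.0466, 0.00341). The H1299 MBD4 value missed the threshold after median centring (0.11, adjusted p = 0.0668), and the other 3 did not lose their calls in any setting run. HELLS was lower with azacitidine in H1299 (-0.51, SE 0.0983, 1.71e-04), and TDG was higher (0.22, 0.00139).

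For several members no drug difference was detected, and the intervals bound its size. HELLS in A549 gave 0.09 over doses (interval -0.11 to 0.30), and TDG in A549 0.01 (-0.10 to 0.12). TRDMT1 gave 0.00 in A549 (-0.20 to 0.20) and 0.01 in H1299 (-0.19 to 0.21). MBD2 gave -0.03 in A549 (-0.10 to 0.05) and 0.01 in H1299 (-0.07 to 0.08), the narrowest of these intervals.

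Many of the matched-dose calls rested on single arrays. In A549 at 1 µM, DNMT1 lost its call without either azacitidine array (0.22 and 0.23, adjusted p = 0.0682 and 0.0533) or decitabine replicate 2 (0.20, 0.101), DNMT3A without decitabine replicate 1 (0.28, 0.211) and DNMT3B without azacitidine replicate 1 (-0.41, 0.0618). At 3 µM in A549, replicate 1 of either drug decided DNMT1 (0.18 and 0.20, adjusted p = 0.0968 and 0.0766) and TDG (0.16 and 0.18, 0.268 and 0.234), and replicate 2 of either drug MBD1 (0.31 and 0.26, 0.0937 and 0.140). MBD4 at 0.3 µM in A549 (-0.29) was lost without any of its 4 arrays (adjusted p = 0.126 to 0.180). In H1299 at 1 µM, DNMT1 was lost without azacitidine replicate 1 (-0.19, adjusted p = 0.0828) and HELLS without decitabine replicate 1 (-0.52, 0.0559). DNMT3B there was lost without azacitidine replicate 2 (-0.32, 0.158) or decitabine replicate 2 (-0.28, 0.212), and DNMT3A without azacitidine replicate 1 (0.38, 0.131) or either decitabine array (0.0877 and 0.0632). DNMT3B at 3 µM in H1299 was lost without azacitidine replicate 1 (-0.38, 0.0589) or decitabine replicate 1 (-0.32, 0.104). Without the 3 arrays that stand apart, DNMT1 at 3 µM in A549 gave 0.17 (adjusted p = 0.206) and TDG 0.09 (0.591). Median centring of the arrays also ended the A549 calls of DNMT1 at 3 µM (0.15, adjusted p = 0.106), TDG at 3 µM (0.19, 0.0855) and MBD4 at 0.3 µM (-0.29, 0.0598). The other calls at 3 µM, among them MBD4 in both lines, DNMT3A and DNMT3B in A549, and DNMT1, HELLS, MBD1 and TDG in H1299, were kept without each array in turn.

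**Figure D4:**
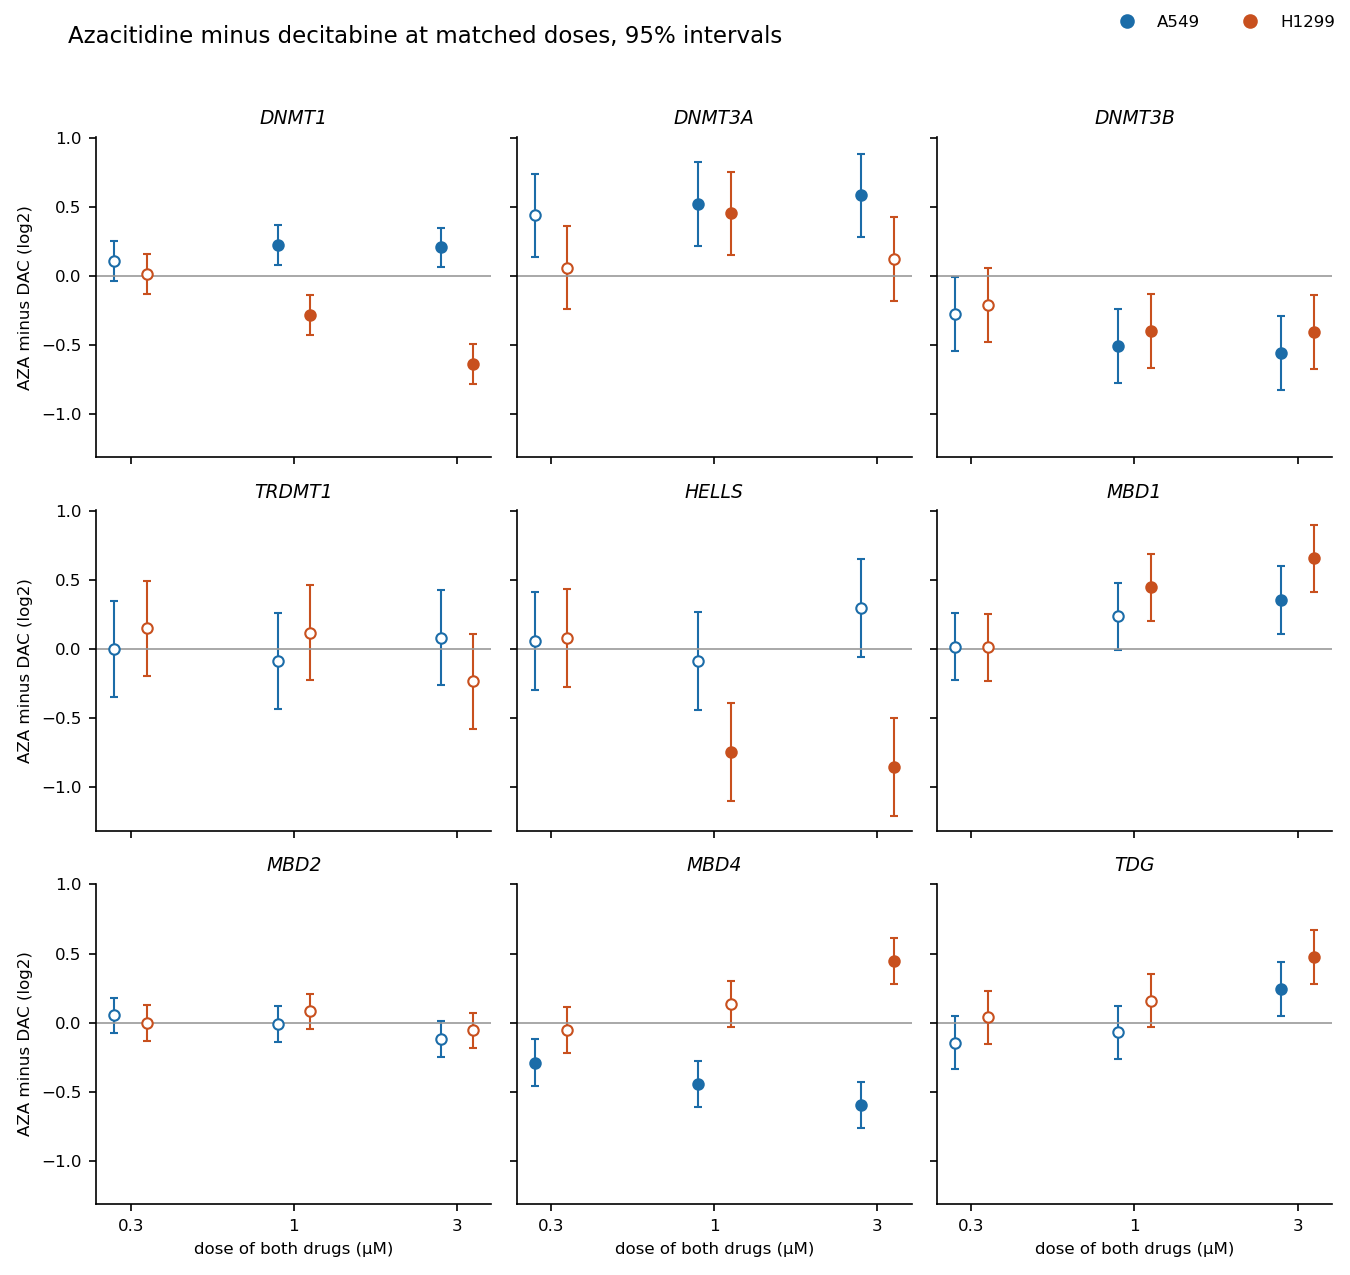
Azacitidine minus decitabine (log2) at 0.3, 1 and 3 µM for each member in both lines; points are estimates from 2 against 2 arrays, bars are 95% intervals, and filled points passed the test over 8024 genes. MBD4 runs from -0.29 to -0.60 in A549 and from -0.06 to 0.44 in H1299, and the MBD2 and TRDMT1 intervals all cross 0.

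The difference between the lines was tested directly. At 3 µM azacitidine, 5 of 9 members responded differently in H1299 and A549 (31.4% of all genes). MBD4 gave 0.91 (SE 0.114, adjusted p = 3.94e-06), DNMT1 -0.68 (SE 0.0978, 2.08e-05) and HELLS -0.99 (SE 0.241, 0.00345), and these 3 calls held without each array in turn. DNMT3B gave 0.53 (SE 0.182, 0.0314) and TDG 0.39 (SE 0.132, 0.0284). Without A549 vehicle replicate 1 these were 0.36 (0.176) and 0.28 (0.150), and without A549 azacitidine 3 µM replicate 2 they were 0.45 (0.114) and 0.31 (0.127). Both also missed the threshold without either H1299 vehicle array or H1299 azacitidine 3 µM replicate 1 (adjusted p = 0.0582 to 0.0994), and DNMT3B without replicate 2 of the latter (0.51, 0.0827), which leaves 3 calls. Without the 3 A549 arrays that stand apart they were 0.44 (0.135) and 0.37 (0.0867). At 3 µM decitabine 0 of 9 members differed between the lines with limma, 0 had an unadjusted p under 0.05, and 17.3% of all genes passed. The intervals there reached from -0.04 to 0.37 for DNMT1, -0.37 to 0.10 for MBD4 and -0.34 to 0.67 for HELLS. In the fit of all kept probe sets, 1 of 2 MBD1 sets, the dimmer, was called for this line difference at 3 µM decitabine, higher in H1299. That set passed the filter only through treated groups where it was high, so no line difference of MBD1 is read from its call. The drug difference over doses also differed between the lines for 5 of 9 members (40.7% of all genes): DNMT1, DNMT3A, HELLS, MBD4 and TDG.

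**Figure D5:**
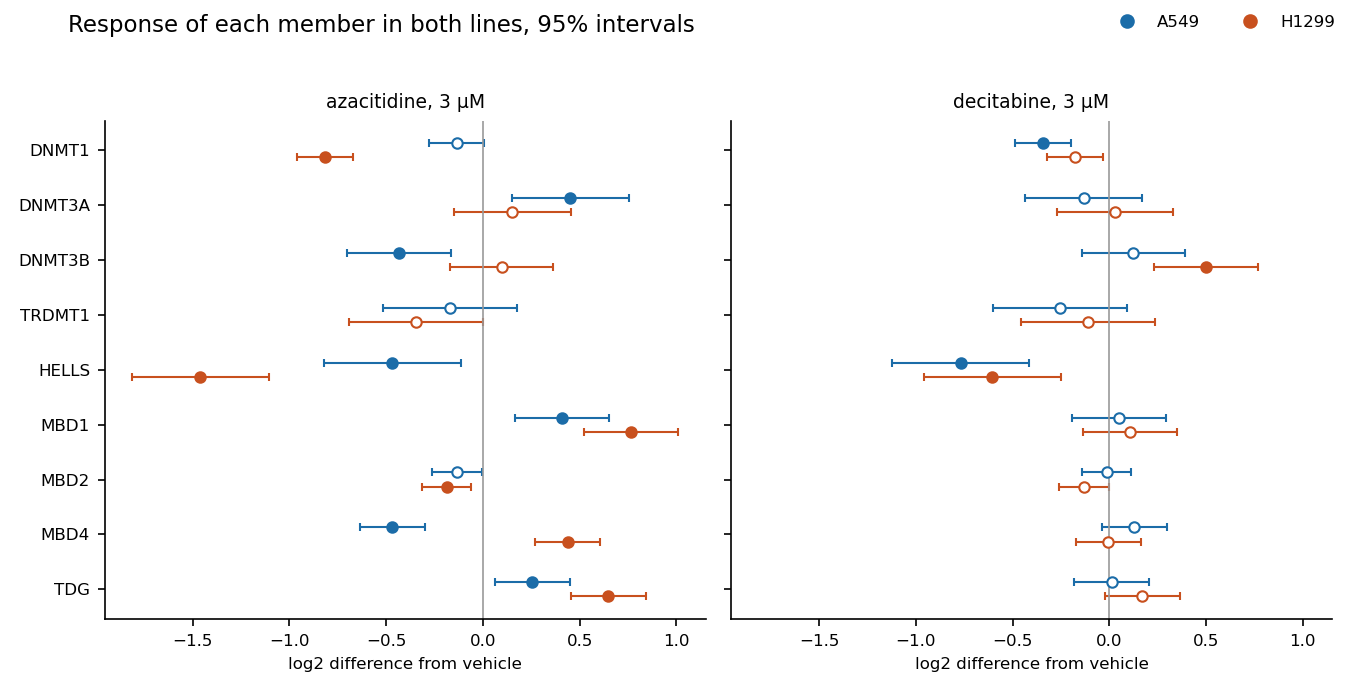
Log2 difference from vehicle at 3 µM azacitidine (left) and 3 µM decitabine (right) for the 9 members in A549 and H1299; points are estimates from 2 against 2 arrays, bars are 95% intervals, and filled points passed the test over 8024 genes. With azacitidine MBD4 lies at -0.47 in A549 and 0.44 in H1299, and with decitabine at 0.13 and -0.01.

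Partners of the members were read from lists. Of the maintenance partners of DNMT1, 3 were measured. PCNA, the clamp that brings DNMT1 to the fork, fell by 1.16 in H1299 and 0.29 in A549 at 3 µM azacitidine, from 5162 and 4674 to 2181 and 2187 in H1299. LIG1, the ligase of the lagging strand, fell by 1.38 and 0.54. USP7, a deubiquitinase that stabilises DNMT1, rose by 0.49 and 0.35. At 3 µM decitabine PCNA fell by 0.57 and LIG1 by 0.61 and USP7 rose by 0.44 in H1299, and 0 of the 3 were called in A549. UHRF1, which brings DNMT1 to hemimethylated sites, was not analysed here.

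Among 10 measured genes of oxidation and base excision repair, which act beside TDG and MBD4, 5 rose and 2 fell at 3 µM azacitidine in H1299 (32.3% and 21.6% of all genes). GADD45A, a stress gene linked to demethylation, rose by 1.47, GADD45B by 0.97 and the uracil glycosylase SMUG1 by 0.84, while PARP1 fell by 0.76. In A549 at that dose GADD45A rose by 1.12, and GADD45B fell by 0.60. The glycosylase UNG fell in A549 by 0.78 at 3 µM decitabine and by 0.30 at 3 µM azacitidine. Of 6 other methyl-DNA readers and partners, 2 rose and 0 fell at 3 µM azacitidine in each line (22.1% of all genes rose in A549 and 32.3% in H1299). ATF7IP, a partner of MBD1 and SETDB1, rose by 0.98 in A549 and 0.55 in H1299 with azacitidine, and by 0.55 and 0.35 with decitabine.

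Of 8 histone methylation partners, 2 fell in A549 (16.2% of all genes) and 3 in H1299 (21.6%) at 3 µM azacitidine. CBX5, the heterochromatin protein HP1 alpha, fell by 0.78 and 1.32 and CBX1 by 0.34 and 0.54, while the methyltransferase EZH2 rose by 0.50 in H1299. Of 5 genes of the methyl donor cycle, 3 fell in H1299 at 3 µM azacitidine (21.6% of all genes), among them AHCY by 0.79 and MAT2A by 0.69, and 1 fell in A549 (AHCYL1, by 0.62), where 16.2% of all genes fell.

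Genes with the most similar course were taken over the 12 treated groups, as the Pearson correlation of differences from vehicle among 6919 genes that varied by at least 0.5 log2. The groups of a line share their vehicle arrays, and the values are a description with no test. DNMT1 was most like PGD (0.95) and PRMT1 (0.94), HELLS like GINS1 (0.93) and MTHFD1 (0.92), and DNMT3B like HEXIM1 (0.95). DNMT3A was most like NIT2 (0.93), MBD1 like GFPT1 (0.98), MBD4 like MEGF9 (0.95) and TDG like NCBP3 (0.98). TRDMT1 and MBD2 varied by under 0.5 and were not ranked. Among the members themselves, over the same 12 groups, MBD1 and TDG ran together (0.856) and both ran against DNMT1 (-0.757 and -0.82), while DNMT1 and HELLS gave 0.688.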

How the data were processed

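Levels of mRNA were read on 1-colour Affymetrix arrays. The authors deposited 1 intensity per probe set, the MAS5 signal, per the submitters' processing notes, and its version and scaling target are not given in the sources used here. Gene names came from the platform annotation supplied (19070 probe sets with 1 gene, 1043 with several, 2164 with none), and sequences from RefSeq. Values were taken as log2(signal + 32). Each gene was read from the brightest (by mean signal) of its kept probe sets, which gave 8024 genes. Limma 3.58.1 (R 4.3.3) fitted 1 mean per group to 28 arrays (14 residual degrees of freedom), with eBayes and an intensity trend. P-values are two-sided, adjusted by Benjamini-Hochberg within each of 28 comparisons at 0.05, and intervals cover 95%. The rule for naming took all 9 members in every comparison, up to 3 called rises and 3 called falls of each list at 3 µM, and the 5 genes most like each member. Members and lists were chosen with earlier results of these data known. Replicate numbers showed no pairing of the arrays common to all groups of a line. In simulated data for azacitidine 3 µM in H1299, 100 of 8024 genes were changed. Of these, 49% were found at a change of log2 0.5 and 94% at log2 1, with 6 false calls each. In the data 53.9% of genes passed in that comparison, so these shares do not give its detection rate.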

Additional observations from a re-analysis of the deposited data

Results flagged for a closer look

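The 10 results here are differences between the lines under the same contrast, each from a test of the difference itself (H1299 minus A549, limma, adjusted over 8024 genes). In the response to 3 µM azacitidine, MBD4 gave 0.91, DNMT3B 0.53, TDG 0.39, DNMT1 -0.68 and HELLS -0.99. MBD4 alone among them passed the test in opposite directions in the lines (-0.47 in A549 and 0.44 in H1299). In the drug difference over doses (azacitidine minus decitabine), where 5 of 9 members passed against 40.7% of all genes, MBD4 gave 0.62 (SE 0.0659, adjusted p = 2.28e-07) and DNMT1 -0.48 (SE 0.0565, 7.67e-07). HELLS gave -0.60 (SE 0.139, 0.00166). DNMT3A gave -0.30 (adjusted p = 0.0456), a call lost in 23 of 37 other settings, most of them with 1 treated array of either line left out (-0.22 to -0.31, adjusted p = 0.0558 to 0.110). TDG gave 0.21 (0.0286), a call lost after median centring (0.17, 0.0661) and without any of 8 single arrays (0.17 to 0.20, adjusted p = 0.0570 to 0.0704). In A549 these are azacitidine 1 and 3 µM replicate 2, decitabine 0.3 and 1 µM replicate 1 and decitabine 3 µM replicate 2. In H1299 they are azacitidine 0.3 µM replicate 2, azacitidine 3 µM replicate 1 and decitabine 3 µM replicate 2. The replication genes differed between the lines too, with 13 of 22 lower in this test (17.5% of all genes) and a median of -0.35, and their part in the DNMT1 and HELLS values was not tested.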

How the results depend on the processing

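No called value changed sign under any alternative run. The 14 calls in A549 over 6 doses ranged from 7 to 15 when 1 array was left out (7 without A549 vehicle replicate 1), and were 3 without 3 A549 arrays, an alternative chosen after seeing the data, as was median centring. The 20 calls in H1299 ranged from 13 (without H1299 vehicle replicate 2) to 20. Leaving out 1 array gave 4 to 5 and 6 to 7 calls for the drug difference in A549 and H1299, 6 to 9 between the vehicles, 14 to 16 for 3 against 0.3 µM, and 3 to 5 for both differences between lines. The line response gave 3 without the 3 A549 arrays, and the line difference of the drug difference gave 3 with the filter at the 75th percentile, which leaves out DNMT3A, TRDMT1 and HELLS. Requiring an absolute log2 difference of at least 0.5 left 2 calls in A549 over doses, 14 in H1299, 1 and 1 for the drug differences, 4 between vehicles, 9 for 3 against 0.3 µM and 2 for the line difference of the drug difference. Shares of all genes past that size are not given here, so these counts cannot be read as particular to the members or used to compare the lines. The cause was not tested, apart from fewer genes or arrays.

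As a check of pairing, the differences of replicate 1 minus replicate 2 were correlated between groups of a line, in 21 pairs of groups each. The correlations ran from -0.245 to 0.266 in A549 (median 0.029) and from -0.078 to 0.156 in H1299 (median 0.002). No pairing common to all groups of a line was seen. With the replicate block, 13 calls were made in A549 over doses and 20 in H1299, and 2 member calls of 252 values were lost. Of 2652 other member values, 73 lost a call and 11 gained one, and median centring (11 lost, 7 gained) and leaving out the 3 arrays (23 lost) moved the most. Median centring moved the median of all genes at 3 µM azacitidine in H1299 from 0.08 to -0.05.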
